A study of Rattus norvegicus with 16 samples.

Results

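The genes described here are the lipoxygenases Alox15 and Alox5, the Alox5 partner Alox5ap, the leukotriene synthase Ltc4s and the cyclooxygenases Ptgs1 and Ptgs2, 6 of the 14324 genes named on the arrays. They were taken by symbol, each with its probe set chosen by the highest measured mean over the 16 arrays, and each had only 1. The 6 symbols were listed with earlier results of these data known, so the difference of Alox15 between the ages is given as a description with no test. All 6 passed the filter on dim genes (a mean of at least 5.661 on the log2 scale), which left 11796 genes in every fit.

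Female offspring of Wistar Han rats were studied on postnatal day (PND) 35 or 50. From gestational day 1 until the litters were weaned on PND 21, the mothers received a daily gavage of genistein, a soy isoflavone that binds estrogen receptors, of vinclozolin, a fungicide with antiandrogenic action, or of the mixture of both. The daily dose of each compound was 1 mg per kg of body weight. The labels give the control groups' treatment as none, and the diet was free of phytoestrogens. Each of the 8 groups of treatment and age had 2 arrays, and each array carried RNA pooled from 5 animals, so p-values measure the spread between pools. The tissue was the whole mammary gland, which holds epithelium, fat, vessels, blood and immune cells.

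Eicosanoids are signalling lipids made from arachidonic acid and related fatty acids. Cyclooxygenases start the path to prostaglandins and thromboxane, and lipoxygenases start the paths to leukotrienes and hydroxy fatty acids. Ptgs1 is made in many resting tissues, Ptgs2 is induced by growth factors and inflammation. Alox5, helped by the membrane protein Alox5ap, makes leukotriene A4, from which Ltc4s makes leukotriene C4. These 3 are known mainly from myeloid cells. Alox15, a lipoxygenase that also oxidises membrane phospholipids, is known from maturing red cells, where it acts in the clearing of organelles, and from macrophages and eosinophils.

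The start regions of Alox5 and Ltc4s, the enzymes at either end of the path to leukotriene C4, and of Ptgs2, the textbook inducible member, are shown as RefSeq gives them for the assembly GRCr8. Of the 6 genes 4 had an entry in the promoter table, and Alox15 and Alox5ap were not among them. Each run is the 250 bases before the annotated start, outside the transcribed gene, read 5′ to 3′ on the gene's own strand. They lie at chr4:151251127-151251376 on the minus strand (Alox5), chr10:35063595-35063844 on the minus strand (Ltc4s) and chr13:64713813-64714062 on the plus strand (Ptgs2). Capitals mark exact matches, on either strand, to the GC box GGGCGG, the E-box CACGTG, the CCAAT/enhancer binding protein motif TTNNGCAAT, the TATA box TATAAA and the GATA motif GATAAG.
Alox5: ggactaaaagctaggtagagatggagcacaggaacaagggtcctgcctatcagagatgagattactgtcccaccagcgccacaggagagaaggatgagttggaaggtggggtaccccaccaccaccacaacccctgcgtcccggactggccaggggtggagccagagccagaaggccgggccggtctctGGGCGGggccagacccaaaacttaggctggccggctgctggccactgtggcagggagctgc
Ltc4s: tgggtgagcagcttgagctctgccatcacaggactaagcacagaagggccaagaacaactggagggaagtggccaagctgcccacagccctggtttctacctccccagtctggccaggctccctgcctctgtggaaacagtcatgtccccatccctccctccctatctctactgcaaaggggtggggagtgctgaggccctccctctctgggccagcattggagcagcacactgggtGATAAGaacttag
Ptgs2: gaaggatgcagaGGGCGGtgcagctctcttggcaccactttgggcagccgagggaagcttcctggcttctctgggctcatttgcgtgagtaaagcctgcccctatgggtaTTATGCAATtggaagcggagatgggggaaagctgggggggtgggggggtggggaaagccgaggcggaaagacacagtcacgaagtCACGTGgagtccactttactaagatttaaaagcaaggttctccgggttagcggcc

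The Alox5 window held a GC box, which 30.5% of the 33469 windows of this length held. The Ltc4s window held a GATA motif (6.18% of windows). The Ptgs2 window held a GC box, an E-box (5.59%) and a CCAAT/enhancer binding protein motif (2.04%). The TATA box was in 12.9% of all windows and in none of these 3. The window of Ptgs1, which also had an entry but is not shown, held no match to any of the motifs. A match describes letters in the window, not a bound site.

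Markers of the gland and of other tissues were checked on all arrays. Luminal markers such as Gata3 (mean 11.85), Krt19 (10.45) and Elf5 (10.24) and adipocyte markers such as Lpl (12.83) and Adipoq (12.66) were far above the filter value. The score of a marker list in a pool is the mean of its tested genes after each gene was centred on its own mean. The skin and hair follicle score was 2.93 and 2.50 in the vinclozolin PND35 pools and lay under 0 in the other 14. The skeletal muscle score ran from -1.94 to 2.23. Over all probe sets, r between the 2 pools of a group ran from 0.9893 to 0.9966. Results that rest on the vinclozolin PND35 pools are given with and without them.

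Alox15 was high in every pool at PND35 and low in every pool at PND50. At PND35 its log2 value was 9.93 and 9.47 in the control pools, 9.81 and 9.91 with genistein, 10.32 and 9.47 with vinclozolin and 10.16 and 10.05 with the mixture. At PND50 it was 7.36 and 8.10 in the control pools, 7.45 and 7.82 with genistein, 7.66 and 7.28 with vinclozolin and 7.6 and 6.95 with the mixture. The lowest PND35 pool thus lay above the highest PND50 pool, and the ages did not overlap in any treatment. The means over the 8 pools were 9.89 ± 0.30 (SD) at PND35 and 7.53 ± 0.35 at PND50. The fitted log2 difference was -2.36 (SE 0.16), a level 5.13-fold lower at PND50, and it was the lowest of the 11796 log2 differences. Of all genes, 3.98% had all 8 PND50 pools below all 8 PND35 pools, 8.45% were lower at PND50 with no overlap within any of the 4 treatments, and within single treatments 26.8% were in the controls, 33.6% with genistein, 24% with vinclozolin and 37.4% with the mixture. In a whole gland, fewer cells that make a transcript and less transcript per cell cannot be told apart.

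The Alox15 difference between the ages was present in each treatment. It was -1.97 (SE 0.31) in the controls, -2.22 with genistein, -2.42 with vinclozolin and -2.83 with the mixture. In the controls it was again the lowest of all genes, and with genistein it ranked 2 from the lowest. With vinclozolin it ranked 24 and with the mixture 15. Averaged over the other 3 treatments in a fit without the vinclozolin PND35 pools, a choice made after seeing the data, it was -2.34. Whether the difference itself changed with exposure was tested with limma as an interaction of treatment and age. The interaction was -0.26 for genistein (95% interval -1.22 to 0.71, adjusted p = 0.928), -0.46 for vinclozolin (-1.43 to 0.51, adjusted p = 0.907) and -0.86 for the mixture (-1.83 to 0.10, adjusted p = 0.456). None passed.

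**Figure D1:**
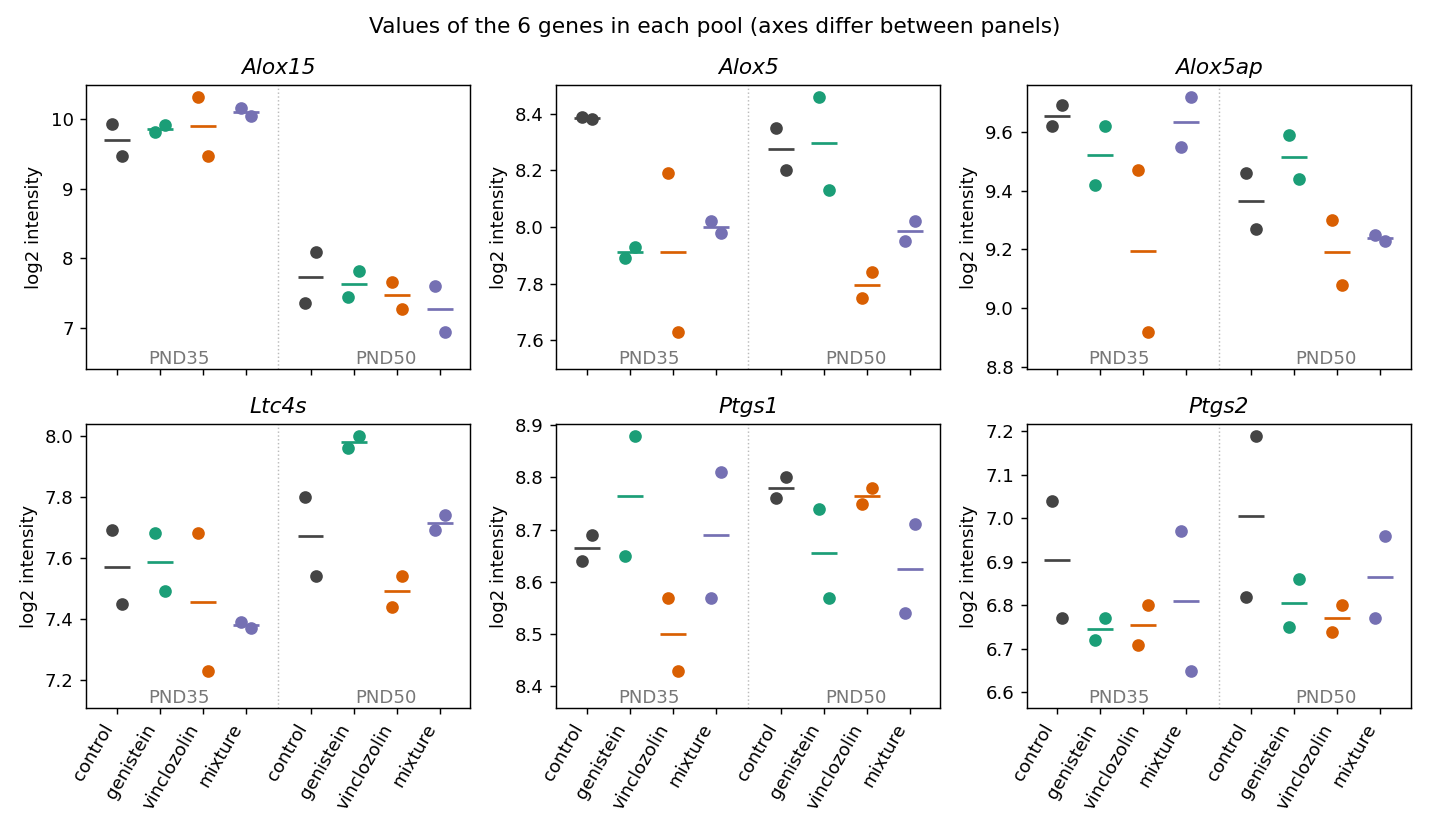
Log2 intensity of each gene (y axis, a scale of its own in each panel) in the 16 pools, by treatment and age; points are pools and bars are the means of the 2 pools of a group. The PND35 pools of Alox15 run from 9.47 to 10.32 and its PND50 pools from 6.95 to 8.10, while the ages overlap for the other 5 genes.

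Red cell genes were lower at PND50 beside Alox15. Of 9 erythroid genes tested 6 fell and none rose (median log2 difference -0.70, against -0.01 over all genes). Over all genes 44.6% passed in this comparison, in either direction, and 19.4% passed as higher, which applies to each count below. The red cell anion exchanger gene Slc4a1 fell by 1.31 (SE 0.14, limma adjusted p = 9.58e-05), Alas2, which starts haem synthesis in red cells, fell by 1.24 (SE 0.12) and Ahsp, which stabilises alpha globin, fell by 1.18 (SE 0.17). The erythroid regulators Klf1 (0.04, SE 0.03, adjusted p = 0.398) and Gata1 (0.07, SE 0.05, adjusted p = 0.263) did not pass. The erythroid score ran from 0.09 to 0.60 in the PND35 pools and from -0.49 to -0.10 in the PND50 pools. Skeletal muscle genes fell at the same contrast by more, 8 of 10 with a median of -1.25, while 7 of 12 luminal epithelial genes rose (median 0.26). Of 7 skin and hair follicle genes 6 fell (median -0.79), but this rests on the vinclozolin PND35 pools, with scores of 2.93 and 2.50. In the other PND35 pools that score ran from -0.58 to -0.29, and in the PND50 pools from -0.43 to -0.29. The part of red cells, muscle, skin or epithelium in the Alox15 difference was not tested.

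Within an age the pool highest in Alox15 was also highest in red cell genes. The vinclozolin PND35 pools stood at the ends of both scales for that age (the lower one level, to 2 decimals, with a control pool in Alox15), with Alox15 at 10.32 and 9.47 and erythroid scores of 0.60 and 0.09. At PND50 the mixture pool with the lowest Alox15 value, 6.95, had the lowest score, -0.49, and the control pool with the highest, 8.10, had the highest score, -0.10. Pearson's r between the score and Alox15 was 0.86 over the 8 pools of PND35 (exact permutation p = 0.00588, 0.0834 adjusted over 156 relations of 6 genes with 13 lists at 2 ages; Spearman's rho 0.71, exact permutation p = 0.0576). Over the 8 pools of PND50 it was 0.81 (exact permutation p = 0.0175, adjusted 0.195; rho 0.69, exact permutation p = 0.0694). Without the 2 pools farthest from the median score, r was 0.64 at PND35 and 0.13 at PND50, so the PND50 relation rests on those pools. None of the 156 relations passed after adjustment (smallest adjusted p = 0.0758, exact permutation). Of 11789 other genes with regular symbols, those most like Alox15 by the lower of the 2 correlations were Hbb-b1, a beta globin (r 0.91 and 0.90), Slc4a1 (0.90 and 0.87) and Npy, which encodes neuropeptide Y (0.85 and 0.90). Globin genes are near copies of each other, so a globin probe set may read several of them.

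**Figure D2:**
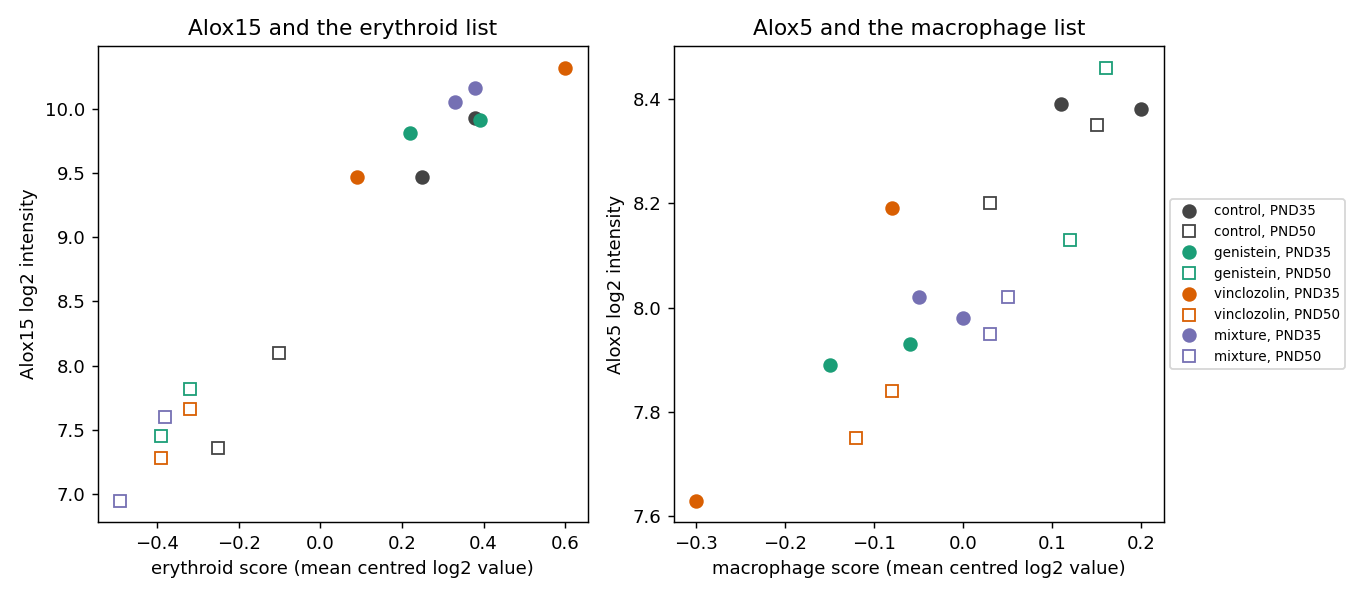
Left, Alox15 log2 intensity against the erythroid score; right, Alox5 log2 intensity against the macrophage score; each point is 1 of 16 pools, filled for PND35 and open for PND50. On the left the ages form separate groups, with scores of at least 0.09 at PND35 and at most -0.10 at PND50, while on the right the ages overlap.

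Markers of other blood and immune cells did not all move in the direction of Alox15. Beside the counts here, 44.6% of all genes passed in the same comparison, 19.4% of them all as higher. Of 4 eosinophil genes tested none fell and 3 rose, with a median log2 difference of 0.21. Of these, Prg2 and Prg3 lay just above the filter value, at means of 5.86 and 5.94, while Cebpe had 6.68 and Siglec5 8.42. The defining eosinophil genes Epx, Ccr3 and Il5ra lay under the filter value, at means of 5.66, 4.44 and 4.45. None of 5 platelet and megakaryocyte genes passed the test (median 0.08). Of 13 macrophage genes 4 rose and 1 fell (median 0.11), and of 7 lymphocyte genes 6 rose and none fell (median 0.21). Of 10 mast cell genes 8 fell and 2 rose (median -0.31), among them Tpsab1, a mast cell tryptase, which fell by 0.71 (SE 0.13, limma adjusted p = 0.00128), while Kit, the stem cell factor receptor that epithelium also makes, rose by 0.59 (SE 0.09). The mast cell score ran from -0.10 to 0.27 in the PND35 pools and from -0.26 to 0.08 in the PND50 pools. The part of mast cells in the Alox15 difference was not tested. Of the other lipoxygenases, Alox12, Alox12b and Alox12e lay under the filter value with means of 5.18, 5.52 and 5.39, and of the 2 tested, Alox15b rose by 0.20 (SE 0.06, adjusted p = 0.0129) and Aloxe3 had 0.11 (SE 0.04, adjusted p = 0.0618).

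Alox5, the enzyme that starts leukotriene synthesis, had similar ranges at both ages, and its lowest group means were those of exposed groups. Its PND35 values were 8.39 and 8.38 in the control pools, 7.89 and 7.93 with genistein, 8.19 and 7.63 with vinclozolin and 8.02 and 7.98 with the mixture. All 6 exposed pools of that age lay below both control pools, as they did for 5.6% of all genes. At PND50 the control pools had 8.35 and 8.20, the genistein pools 8.46 and 8.13, the vinclozolin pools 7.75 and 7.84 and the mixture pools 7.95 and 8.02. There the vinclozolin and mixture pools lay below both controls, and the genistein pools lay on either side of them. The order of group means was control PND35 (8.38), genistein PND50 (8.29), control PND50 (8.27), mixture PND35 (8.0), mixture PND50 (7.98), genistein PND35 and vinclozolin PND35 (both 7.91) and vinclozolin PND50 (7.80). In that order the step from control PND50 to mixture PND35 was the only one larger than the SD between pools of a group, 0.17.

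None of these Alox5 differences passed the limma test. At PND35 the log2 difference from control was -0.47 with genistein (95% interval -0.80 to -0.15, adjusted p = 0.318), -0.47 with vinclozolin (-0.80 to -0.15, adjusted p = 0.17) and -0.38 with the mixture (-0.71 to -0.05, adjusted p = 0.272). The 3 comparisons share the same 2 control pools. Of all genes, 14.4% with genistein, 24.3% with vinclozolin and 25.9% with the mixture were lower without overlap. At PND50 the difference was 0.02 with genistein (-0.31 to 0.35), -0.47 with vinclozolin (-0.80 to -0.15, adjusted p = 0.798) and -0.29 with the mixture (-0.61 to 0.04, adjusted p = 0.706), again against shared controls, and 25.4% and 24.6% of all genes were lower without overlap in the last 2. The vinclozolin pools at PND35 differed from each other by more than those of the other groups. Without the first of them the difference was -0.76 and passed, but that fit rests on the second pool alone, at 7.63 the lowest of all pools. The range over all alternatives was -0.76 to -0.19. The interaction of genistein with age was 0.49 (0.03 to 0.96, adjusted p = 0.625). Between the ages, averaged over treatments, the log2 difference was 0.04 (SE 0.07, adjusted p = 0.704).

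The macrophage score was also lower in the exposed pools of PND35. It was 0.11 and 0.20 in the control PND35 pools and lay between -0.30 and 0.00 in the exposed pools of that age. Other markers differed between these pools as well. The basal and myoepithelial score was -0.26 and -0.28 in the controls and from -0.21 to 0.25 in the 6 exposed pools. It was 0.18 and 0.25 in the vinclozolin pools, whose skin and hair follicle scores were 2.93 and 2.50. In the other exposed pools it ran from -0.21 to 0.16. Of 10 adipocyte genes 10 had negative differences with genistein and 9 with vinclozolin, and 11 of 12 luminal genes had positive ones with genistein, none of them past the test. With vinclozolin at PND35, 2 of 13 macrophage genes fell: C1qb, a complement component, by 0.58 (SE 0.12, limma adjusted p = 0.0344) and Itgam, an integrin, by 0.58 (SE 0.11, adjusted p = 0.0291). The list's median was -0.42, against -0.02 over all genes, of which 1.34% passed in this comparison. With genistein the median was -0.28 and with the mixture -0.20, with no gene past the test. The count of macrophage genes lower with vinclozolin was 8 without the first vinclozolin PND35 pool and 0 without the second, or without any 1 of the 4 control pools. Of 10 mast cell genes 2 fell with vinclozolin at PND35 as well (median -0.33). That count was 0 without either control PND35 pool. Pearson's r between the macrophage score and Alox5 was 0.91 over the 8 pools of PND35 (exact permutation p = 0.00293, 0.0758 adjusted over the 156 relations) and 0.91 over those of PND50 (exact permutation p = 0.00295, adjusted 0.0758). Spearman's rho was 0.81 (exact permutation p = 0.0218) and 0.86 (exact permutation p = 0.0107), and r without the 2 pools farthest from the median was 0.76 and 0.81. The 8 pools of an age come from 4 treatments, so r also takes in the differences from control given above. No other list of the 13 had an r of like size at both ages, but some had sizeable ones. The adipocyte score gave r of 0.87 at PND35 (rho 0.83, r adjusted p = 0.0758, exact permutation) and 0.54 at PND50, the luminal score -0.69 and -0.79 and the mast cell score 0.44 and 0.55. The part of these cell types in the Alox5 values was not tested. The single genes most like Alox5 were Fxyd2, a regulator of the sodium pump (r 0.95 and 0.97), Card19 (0.93 and 0.94) and Dagla, a diacylglycerol lipase (0.92 and 0.94).

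Alox5ap, the membrane protein that presents arachidonic acid to Alox5, had a narrow range apart from 1 pool. At PND35 it stood at 9.62 and 9.69 in the control pools, 9.42 and 9.62 with genistein, 9.47 and 8.92 with vinclozolin and 9.55 and 9.72 with the mixture. At PND50 it stood at 9.46 and 9.27, 9.59 and 9.44, 9.30 and 9.08 and 9.25 and 9.23 in the same order of treatments. The second vinclozolin PND35 pool was the lowest of all 16, and the other 7 pools of its age lay between 9.42 and 9.72. Between the ages the log2 difference was -0.17 (SE 0.08, limma adjusted p = 0.0838), which did not pass. Without that pool it was -0.24 (SE 0.06, adjusted p = 0.00575), and without both vinclozolin PND35 pools, averaged over the other 3 treatments, it was -0.23 (SE 0.06, adjusted p = 0.0111). With the mixture the age difference was -0.39 (SE 0.15, limma adjusted p = 0.0662), which did not pass, but it passed with only the mixture groups fitted (0.0193), with array weights (0.0278) and without either or both of the vinclozolin PND35 pools (0.0151). Vinclozolin at PND35 had -0.46 against control (95% interval -0.79 to -0.12, limma adjusted p = 0.192). That difference was -0.18 without the second vinclozolin pool and -0.73 without the first. In the latter fit it passed, but there it rests on the second pool alone, the lowest of all. In the order of group means no step exceeded the SD between pools, 0.17.

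Alox5ap and Alox5 had positive correlations over pools at both ages, which did not pass after adjustment. Pearson's r was 0.70 over the 8 pools of PND35 (exact permutation p = 0.045, 0.337 adjusted over 30 relations between the 6 genes; rho 0.48, exact permutation p = 0.243) and 0.80 over those of PND50 (exact permutation p = 0.0187, adjusted 0.28; rho 0.69, exact permutation p = 0.0694), and 0.73 and 0.84 without the 2 pools farthest from the Alox5 median. None of the 30 relations passed. At PND35 and PND50 Alox5ap had r of 0.83 and 0.79 with the macrophage score, 0.90 and 0.79 with the endothelial score, 0.80 and 0.63 with the adipocyte score, -0.82 and -0.39 with the basal and myoepithelial score and -0.60 and -0.87 with the luminal score. None of these passed after adjustment over the 156 relations. Without the 2 pools farthest from the median score, r at PND35 and PND50 was 0.28 and 0.69 for the endothelial score. It was 0.09 and 0.53 for the adipocyte score, so these 2 relations at PND35 rest on the pools left out. It was 0.68 and 0.95 for the macrophage score, -0.9 and -0.36 for the basal and myoepithelial score and -0.5 and -0.77 for the luminal score. The genes most like it were St3gal2, a sialyltransferase (0.94 and 0.98), Klra2, a lectin-like receptor of natural killer and myeloid cells (0.91 and 0.90), and Pde8a, a phosphodiesterase (0.89 and 0.90).

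Ltc4s, the synthase of leukotriene C4, was slightly higher at PND50. At PND35 it stood at 7.69 and 7.45 in the control pools, 7.68 and 7.49 with genistein, 7.68 and 7.23 with vinclozolin and 7.39 and 7.37 with the mixture. At PND50 it stood at 7.80 and 7.54, 7.96 and 8.0, 7.44 and 7.54 and 7.69 and 7.74 in the same order. The genistein PND50 pools were the highest of all 16, and the ages overlapped in the controls and with vinclozolin. The share of all genes higher without overlap within a treatment is not given here. A lack of overlap was common, as 33.6% of all genes with genistein and 37.4% with the mixture were lower at PND50 without it. Averaged over treatments Ltc4s rose by 0.22 (SE 0.07, limma adjusted p = 0.0233), a 1.16-fold change. This call was lost without control PND35 replicate 2, genistein PND35 replicate 2, control PND50 replicate 1 or vinclozolin PND50 replicate 2, each left out in turn (adjusted p from 0.0532 to 0.0584), and was 0.27 (adjusted p = 0.0042) without both vinclozolin PND35 pools. Of the 11796 genes 44.6% passed in this comparison and 19.4% passed as higher, so the call is near the background. Apart from Alox15, whose difference is given as a description, Ltc4s was the only one of the 6 past the threshold.

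Within single treatments Ltc4s had 0.10 (SE 0.14) in the controls, 0.39 with genistein (adjusted p = 0.12), 0.04 with vinclozolin and 0.33 with the mixture (adjusted p = 0.079), none past the limma test. The mixture value passed with only the mixture groups fitted (0.0192), with array weights (0.0405) and without either or both of the vinclozolin PND35 pools (0.0283). Genistein at PND50 had 0.31 against control (95% interval 0.01 to 0.61, adjusted p = 1). In the order of group means the step from genistein PND50 (7.98) to mixture PND50 (7.71) was the only one larger than the SD between pools, 0.15. Ltc4s and Alox5 had r of 0.55 at PND35 (exact permutation p = 0.155, adjusted 0.774) and 0.70 at PND50 (exact permutation p = 0.0563, adjusted 0.338; 0.38 without the 2 pools farthest from the Alox5 median). With the endothelial score Ltc4s had r of 0.38 at PND35 and 0.94 at PND50, and with the macrophage score 0.31 and 0.88. With the platelet and megakaryocyte score r was 0.88 and 0.62, and with the basal and myoepithelial score 0.01 and -0.82. None of these passed after adjustment over the 156 relations. The genes most like Ltc4s were Mef2b, a transcription factor (0.93 and 0.87), Rgs5, a regulator of G protein signalling made by pericytes (0.87 and 0.93), and Magee1 (0.86 and 0.84).

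The cyclooxygenases were the steadiest of the 6 genes. Ptgs1 stood at 8.64 and 8.69 in the control pools of PND35, 8.65 and 8.88 with genistein, 8.57 and 8.43 with vinclozolin and 8.57 and 8.81 with the mixture. At PND50 it stood at 8.76 and 8.80, 8.74 and 8.57, 8.75 and 8.78 and 8.54 and 8.71. Its SD over the 16 pools was 0.12, against 1.26 for Alox15, and its difference between the ages was 0.05 (95% interval -0.06 to 0.17, adjusted p = 0.407). The lowest group was vinclozolin PND35 with a mean of 8.50, which was -0.17 from control (95% interval -0.40 to 0.06, adjusted p = 0.503), and vinclozolin had 0.27 between the ages (SE 0.10, adjusted p = 0.182). Without both vinclozolin PND35 pools the age difference over the other 3 treatments was -0.02. The vinclozolin difference from control at PND35 was -0.10 without the second vinclozolin pool and -0.24 without the first. The genes most like Ptgs1 were Miip (r 0.86 and 0.96), Rfc5, a subunit of the clamp loader of DNA replication (0.83 and 0.82), and Tonsl, a replication repair protein (0.80 and 0.78).

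Ptgs2, the inducible cyclooxygenase, passed no test between groups, and its mean lay under the median of all probe sets. It stood at 7.04 and 6.77 in the control pools of PND35, 6.72 and 6.77 with genistein, 6.71 and 6.80 with vinclozolin and 6.97 and 6.65 with the mixture. At PND50 it stood at 6.82 and 7.19, 6.75 and 6.86, 6.74 and 6.80 and 6.77 and 6.96. The highest value of each age was in a control pool, and the other control pool of that age lay within the range of the exposed pools. The age difference was 0.06 (95% interval -0.09 to 0.21, adjusted p = 0.487). The differences from the shared controls were -0.16, -0.15 and -0.10 at PND35 and -0.20, -0.23 and -0.14 at PND50 for genistein, vinclozolin and the mixture, with every 95% interval including 0. In the order of group means no step exceeded the SD between pools, 0.15. The genes most like Ptgs2 were Gmps, an enzyme of guanine nucleotide synthesis (r 0.90 and 0.83), Xpo4, a nuclear exporter (0.81 and 0.81), and Tpgs2 (0.80 and 0.77).

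**Figure D3:**
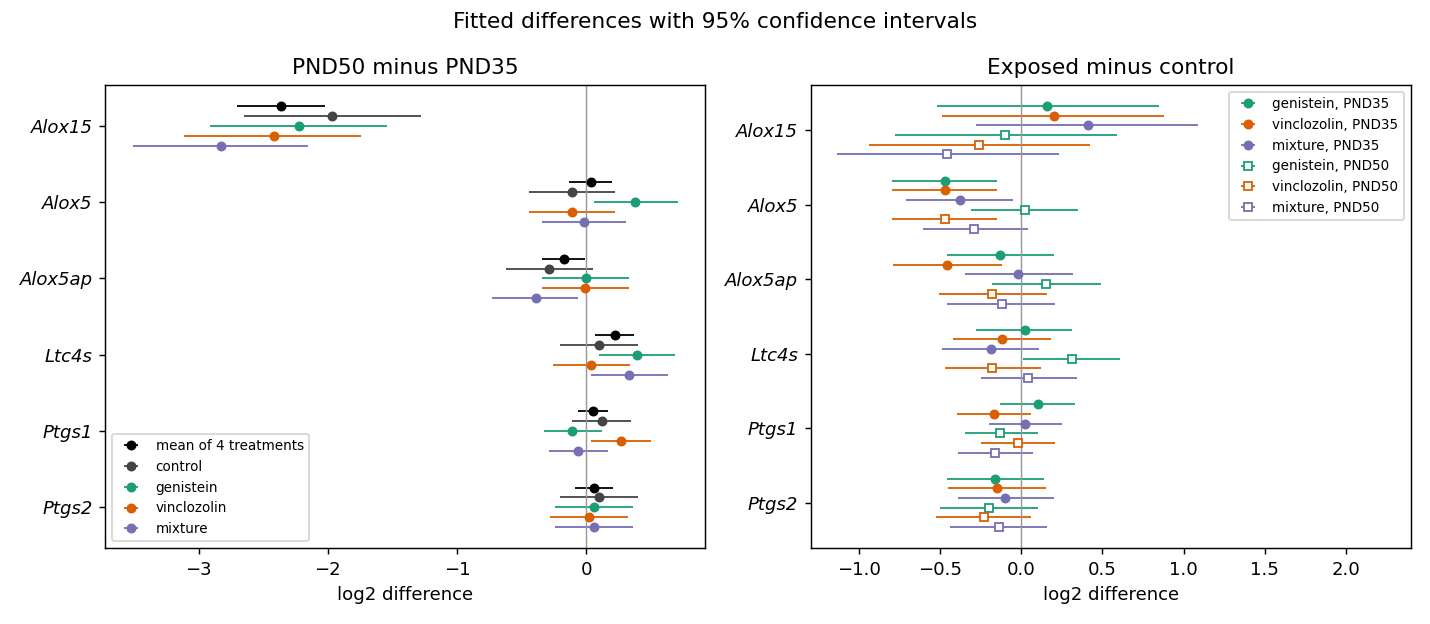
Fitted log2 differences of the 6 genes with 95% intervals from limma: left, PND50 minus PND35 within each treatment and on average; right, each exposure minus its control, filled for PND35 and open for PND50. Alox15 lies between -2.83 and -1.97 on the left, and on the right the largest distances from 0 are the -0.47 of Alox5 and the -0.46 of Alox5ap and Alox15.

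None of the 6 genes passed limma's test against control in any exposure at either age with all pools fitted. Without the first vinclozolin PND35 pool Alox5 and Alox5ap passed with vinclozolin, but that group was then the second pool alone. At PND35 none of the 6 passed with genistein (0% of all genes passed; 1 of the 6 at an unadjusted p under 0.05, and 1311 of all genes), vinclozolin (1.34% passed; 2 of the 6 unadjusted, and 1716 of all genes) or the mixture (0% passed; 1 of the 6 unadjusted, and 1799 of all genes). At PND50 none passed with genistein (0%; 1 of 6 unadjusted, and 307 of all genes), vinclozolin (0%; 1 of 6 unadjusted, and 713 of all genes) or the mixture (0.00848%; 0 of 6 unadjusted, and 874 of all genes). Between the ages within treatments, Alox15 is given as a description, and no other of the 6 passed. Of all genes 0.865% passed there in the controls, 2.77% with genistein, 2.78% with vinclozolin and 32.7% with the mixture. The interactions of treatment and age passed for none of the 6 (0%, 0.381% and 0% of all genes).

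Genes of the rest of the eicosanoid pathway passed the test between the ages about as often as genes in general. The list held 57 further genes, of which 48 were named and 43 tested, and 10 rose and 8 fell (41.9%, beside 44.6% of all genes), with a median log2 difference of -0.01, equal to that of all genes. Among the phospholipases that release the fatty acid, Pla2g2a rose by 0.58 (SE 0.10, limma adjusted p = 0.000946) and Pla2g2d by 0.36 (SE 0.06), while Pla2g7, which inactivates platelet-activating factor, fell by 0.53 (SE 0.10) and Pla2g15, a lysosomal enzyme, fell by 0.37 (SE 0.08). Pla2g4a, the cytosolic phospholipase that feeds both branches, had -0.08 (SE 0.05, adjusted p = 0.217). Of 4 leukotriene enzymes the dipeptidase Dpep2 rose by 0.38 (SE 0.08) and its relative Dpep1 fell by 0.27 (SE 0.10). Lta4h, which makes leukotriene B4, had -0.05 (adjusted p = 0.333).

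Of 9 prostanoid synthases Ptgds rose by 0.35 (SE 0.08, limma adjusted p = 0.00706) and Hpgds fell by 0.27 (SE 0.09), both of which make prostaglandin D2. Hpgds is also a mast cell gene. In breakdown and transport, Hpgd, which inactivates prostaglandins, fell by 0.62 (SE 0.14, adjusted p = 0.00477), the reductase Ptgr2 fell by 0.21 (SE 0.05) and Ephx2, a hydrolase of epoxy fatty acids, fell by 0.24 (SE 0.06). The prostaglandin transporter Slco2a1 rose by 0.28 (SE 0.05), with no overlap of the ages in any treatment, as for 4.56% of all genes. Of 12 receptors 3 rose, each by 0.14: Ptger1 for prostaglandin E2 (SE 0.05), Tbxa2r for thromboxane (SE 0.04) and Ltb4r for leukotriene B4 (SE 0.05). No receptor fell. Averaged over the other 3 treatments without the vinclozolin PND35 pools, the counts were again 10 and 8. With the filter at the 50th percentile 5 rose. The count of higher genes was 6 without control PND35 replicate 2 and without genistein PND35 replicate 2. The count of lower genes was 5 without control PND35 replicate 2 and without control PND50 replicate 2.

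**Figure D4:**
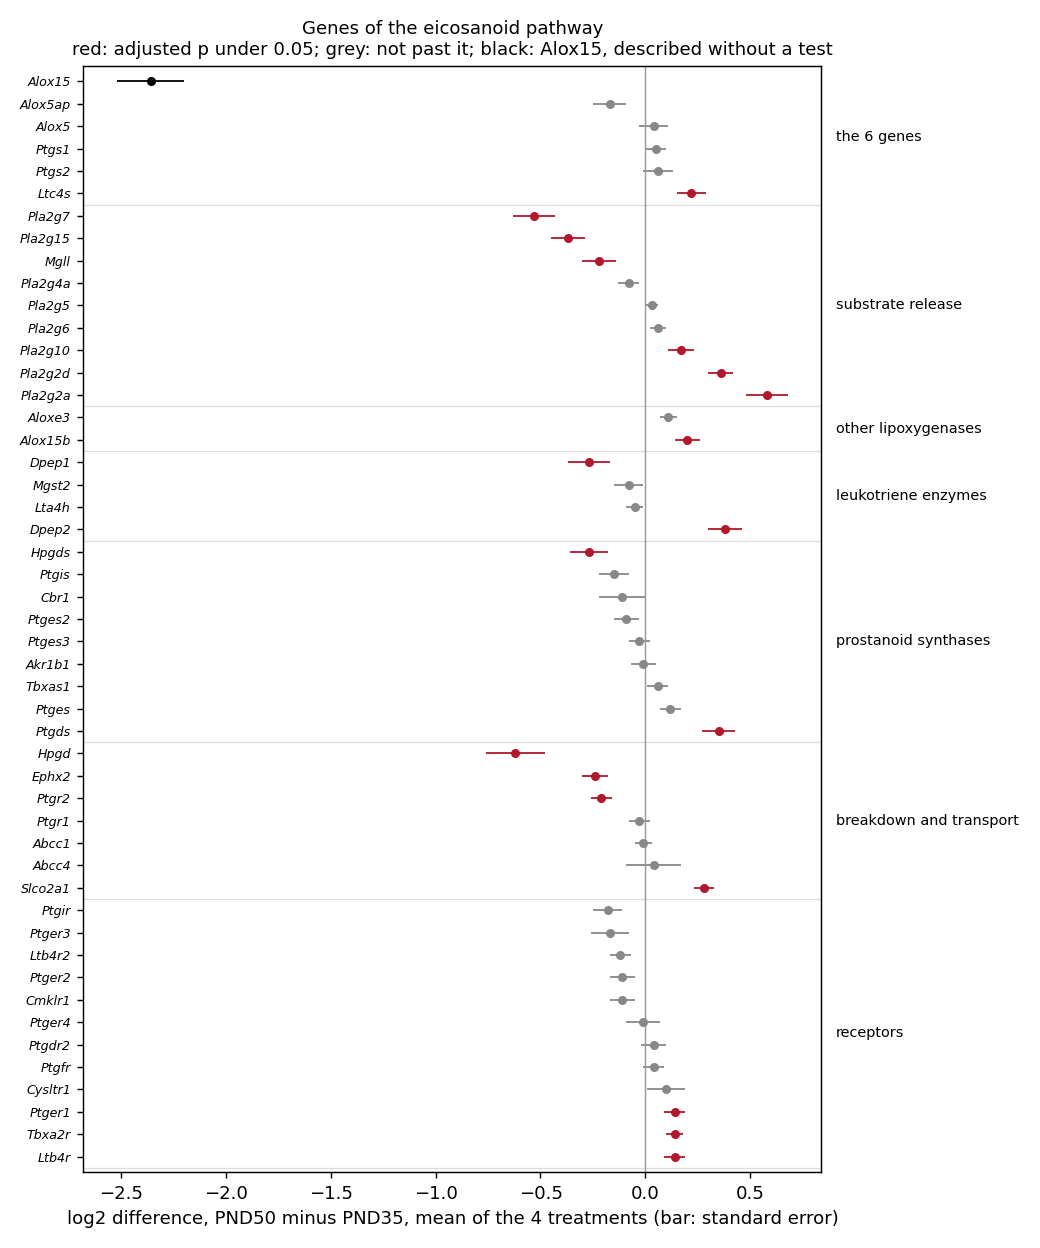
Log2 difference between PND50 and PND35, averaged over treatments, for the 6 genes and 43 other genes of the eicosanoid pathway by role; points are fitted differences and bars standard errors. Alox15, at -2.36, lies far below the others, which lie between -0.62 (Hpgd) and 0.58 (Pla2g2a).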

How the data were processed

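The labels' protocols describe RNA extracted from individual glands, pooled, biotin labelled and hybridised to Affymetrix arrays. The authors' deposited table gives 27342 probe sets on 16 arrays, whose values, from 2.2 to 13.9, have the range of log2 intensities and were treated as such. The sources used here do not state log base, background correction, normalization or summarization. Array medians lay between 7.05 and 7.145, and nothing further was normalized. Depth does not apply, and the number of arrays limits the precision.

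Probe sets were named through a platform annotation (15097 with 1 symbol, 323 with several, 11922 unnamed here), with 15067 gene identifiers updated through RefSeq (GRCr8). Genes dimmer on average than the 25th percentile of probe sets were left out. limma 3.58.1 in R 4.3.3 fitted 8 group means to 16 arrays (8 residual degrees of freedom); 14 contrasts were tested two-sided, adjusted by Benjamini and Hochberg over 11796 genes, at a threshold of 0.05, and checked on simulated data. Correlation tests were two-sided (scipy 1.17.1). They shuffled the 8 pools of an age freely, although these come from 4 treatments, so differences between treatments enter each r and its p-value. The 6 genes and all lists were chosen with earlier results of these data known. Genes were named by rule: all 6, the pathway genes past the threshold with the smallest p, the brightest markers and the 3 genes most like each; other markers were chosen after their values were seen. Figures used matplotlib 3.10.9 in Python 3.11.15.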

Additional observations from a re-analysis of the deposited data

Results flagged for a closer look

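Alox5ap in the second vinclozolin PND35 pool, at 8.92, lay apart from the other 7 pools of that age, which lay between 9.42 and 9.72. The gap was 0.63 of the whole range, above Dixon's critical value of 0.526 for 8 samples. Of 12 sets of pools checked (6 genes at 2 ages) this was the only one, and chance gives about 1 in 20. The 8 pools come from 4 treatments, so they are not replicates of 1 group. The same pool had the lowest Alox5 value, 7.63, the lowest Ltc4s value, 7.23, and the lowest Ptgs1 value, 8.43. Its macrophage score, -0.30, and its endothelial score, -0.22, were the lowest as well, and its erythroid score, 0.09, was the lowest at PND35. The part of this pool in the results is given by the values without it.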

How the results depend on the processing

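Counts of the 6 genes past the threshold include Alox15 in the age comparisons, whose difference is a description. A count of 1 in an age comparison is Alox15 alone, so these counts give its difference no support. For the age average the count was 2, from 1 to 3 with 1 pool left out, and 3 at a threshold of 0.1 and, over the other 3 treatments, without both vinclozolin PND35 arrays, where Alox5ap was added. It was 1 in the controls and with genistein, from 0 to 1 each. With vinclozolin it was 1, and 0 when only the groups compared were fitted. With the mixture it was 1, and 3 with array weights, at a threshold of 0.1, with only the groups compared and without both vinclozolin PND35 arrays, and from 1 to 3 with 1 pool left out, where Alox5ap and Ltc4s were added. For vinclozolin at PND35 it was 0, from 0 to 2 with 1 pool left out. Leaving out a pool leaves its group with 1 pool, assumed to vary like the others. No value past the threshold changed sign. Alox15 between the ages ran from -2.47 to -2.25 over 26 alternatives. The quantile scaling moved the share of higher calls from 29.4% to 65% with genistein and from 41.2% to 57.8% with vinclozolin between the ages, and median centring moved the first to 44.4%. With the replicate block the age average called 5261 genes and 2 of the 6, as without it. Same-numbered pools deviated together (r over 0.1) in 8 of 28 pairs of groups (r from -0.366 to 0.301). No reference was drawn for these r, so they do not decide whether the numbers pair some of the pools. Counts of all genes past the threshold moved by more than 1.5 times in these comparisons. Between the ages the controls had 102 genes (2 to 177 with 1 pool left out, up to 375 with array weights), genistein 327 (0 to 432; 1 with only the groups compared, 1107 at a threshold of 0.1), vinclozolin 328 (67 to 407; 25 and 744 under the same settings) and the mixture 3852 (1596 to 4174). Vinclozolin at PND35 had 158 (54 to 844; 25 and 329), the mixture at PND50 1 (0 to 6; 7 with array weights), and genistein and the mixture at PND35 0 each (up to 58 and 24 with 1 pool left out). The interaction of vinclozolin had 45 (38 to 186; 11 with the filter at the 50th percentile) and that of the mixture 0 (up to 8).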

Other observations

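Between the ages of the mixture groups 8 of the 43 pathway genes rose and 4 fell, or 27.9%, below the 32.7% of all genes that passed there. Ptges, the inducible synthase of prostaglandin E2, rose by 0.57 (SE 0.09, limma adjusted p = 0.00179), Alox15b by 0.55 (SE 0.11), Dpep2 by 0.65 (SE 0.15) and Pla2g2a by 0.74 (SE 0.19), and Pla2g15 fell by 0.77 (SE 0.17). Whether these differences exceeded those of the other treatments was not tested gene by gene here. The skeletal muscle score was 0.82 and 2.23 in the mixture PND35 pools and -0.89 and -1.94 in the mixture PND50 pools, and its part in these values was not tested.

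Pla2g2d, a secreted phospholipase of dendritic cells and macrophages, was the only one of the 43 pathway genes past the threshold in a comparison of exposure with control. With vinclozolin at PND35 it fell by 0.72 (SE 0.13, limma adjusted p = 0.0184), from a mean of 10.68 to 9.95. The count of pathway genes lower there became 0 without control PND35 replicate 1, control PND35 replicate 2 or vinclozolin PND35 replicate 2, and 2 without vinclozolin PND35 replicate 1.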
